A study of Mus musculus with 4 samples.

Results

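The tripartite motif (TRIM) family was examined in M1 and M2 mouse macrophages with and without interleukin-1α (IL-1α). Members were the genes whose symbol is Trim followed by a number, on probe sets that the platform annotation ties to 1 gene. This rule gave 59 of the 19938 genes measured, each by 1 probe set. The study held 4 arrays, 1 per group, of bone marrow-derived macrophages from C57BL/6N mice. Marrow cells were grown in 10 ng/mL M-CSF and harvested on day 9, and all 4 groups share this step. M1 cells were then given 10 ng/mL IFN-γ for 48 h and M2 cells 20 ng/mL IL-4 for 48 h. Each phenotype was incubated for 24 h with vehicle (M1 vehicle, M2 vehicle) or with 10 ng/mL IL-1α (M1 IL-1α, M2 IL-1α). No array held macrophages given neither IFN-γ nor IL-4, so a rise in M1 and a fall in M2 cannot be told apart. The labels do not say how many mice were used, whether RNA was pooled, whether IFN-γ or IL-4 stayed present during the IL-1α step, or whether arrays came from separate cultures. Without replicates, none of the group values can carry an error, and in such bulk RNA a change in the share of some cells and a change in RNA per cell cannot be told apart.

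TRIM proteins carry a RING finger, B-box and coiled-coil region, followed in most members by a domain that binds the target, and most act as ubiquitin ligases. Several are induced by interferons and act against viruses. Some of these bind viral capsids, and others attach ubiquitin to nucleic acid sensors or their adaptors. Further members restrain or promote NF-κB signalling, repress transcription on chromatin, or bind microtubules. Mice have no single copy of the primate restriction factor TRIM5. They carry a cluster of related genes instead, with the Trim12 and Trim30 groups beside Trim6, Trim34a, Trim34b and a gene annotated as Trim5.

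Levels are given as RMA log2 signals and differences as log2 differences, with folds named as such. The median signal of all genes on the 4 arrays, 7.617, served as a floor, and a signal below it was not taken as shown to be present. Of the 59 members, 32 reached the floor on at least 1 array and 28 on all 4. The defining macrophage markers were present, with all 7 of Cd68, Csf1r, Adgre1, Itgam, Lyz2, Mertk and Fcgr1 at the floor. They were not all level, and their M2 minus M1 differences with vehicle ran from -3.06 (Fcgr1) to 0.56 (Csf1r), with a median of 0.08. None of the 4 lymphocyte markers and none of the 3 mast cell markers measured reached the floor. Each phenotype carried its own markers, with Nos2 at 13.00 and 6.79 and Arg1 at 6.75 and 12.48 on the M1 and M2 vehicle arrays.

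Some members share a sequence near their start that bears on an interferon-linked family, so these stretches are shown first. The core of the interferon-stimulated response element, which is GAAA, any 2 bases and GAAA again, was searched on both strands in RefSeq windows (GRCm38.p6) of 250 bases before to 50 bases after each start. The table held a window for 46 of the 59 members. A match was found in 8 of these 46 (17.4%), against 1079 of the 27025 genes in the table (3.99%) and 3.44% of all 32851 windows. The members with a match were Trim12a, Trim12c, Trim21, Trim26, Trim30a, Trim30d and Trim34a, which reached the floor, and Trim2, which did not. For these 7 genes at the floor, 1 stretch of 30 bases each is printed on the strand of the gene, with the matched letters in capitals. Trim30a has a second annotated start whose window also held a match (chr7:104446104-104446133, minus strand), which is not printed. Trim21 and Trim26 each hold 2 overlapping matches, printed as 1 run.
Trim12a (chr7:104315466-104315495, minus strand): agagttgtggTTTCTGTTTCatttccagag
Trim12c (chr7:104353359-104353388, minus strand): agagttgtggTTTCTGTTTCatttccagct
Trim30a (chr7:104465210-104465239, minus strand): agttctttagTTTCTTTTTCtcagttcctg
Trim30d (chr7:104507871-104507900, minus strand): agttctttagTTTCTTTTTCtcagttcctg
Trim34a (chr7:104244457-104244486, plus strand): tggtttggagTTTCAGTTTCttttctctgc
Trim21 (chr7:102565447-102565476, minus strand): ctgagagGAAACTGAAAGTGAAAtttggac
Trim26 (chr17:36836979-36837008, plus strand): cttccgaTTTCACTTTCCTTTTCtcgggcc

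These matches lay close to the annotated starts, apart from that of Trim26. The first matched base was 36 bases before the start in Trim30a (at position -36; at position 3 from its second start), at -41 in Trim30d and at -29 in Trim12c. It was at position 11 after the start in Trim12a and in Trim34a, at 14 in Trim21 and at -160 in Trim26. Matches in close copies of a gene are not independent of each other. The Trim30a and Trim30d windows were identical at 92.3% of bases in a global alignment and those of Trim12a and Trim12c at 82.7%, whereas the other pairs of the cluster lay between 56.7% and 62.3%. The 120 bases around the match of Trim30a and Trim30d, all before the start, differed at 2 positions and are shown to make that likeness visible.
Trim30a (chr7:104465205-104465324, minus strand): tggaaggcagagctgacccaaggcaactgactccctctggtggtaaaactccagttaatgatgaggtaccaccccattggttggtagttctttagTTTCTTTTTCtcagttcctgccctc
Trim30d (chr7:104507866-104507985, minus strand): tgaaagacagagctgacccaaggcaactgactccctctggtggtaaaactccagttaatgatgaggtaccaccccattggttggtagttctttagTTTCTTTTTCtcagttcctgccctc

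The spacing bound by STAT6, which is TTC, any 4 bases and GAA, was found in 6 of the 46 members (13.0%) and in 8.01% of all genes, and 2 of the 6, Trim39 and Trim68, reached the floor. A match is a string of letters and not a measured binding site, and these windows cover only the start of each gene.

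**Figure D1:**
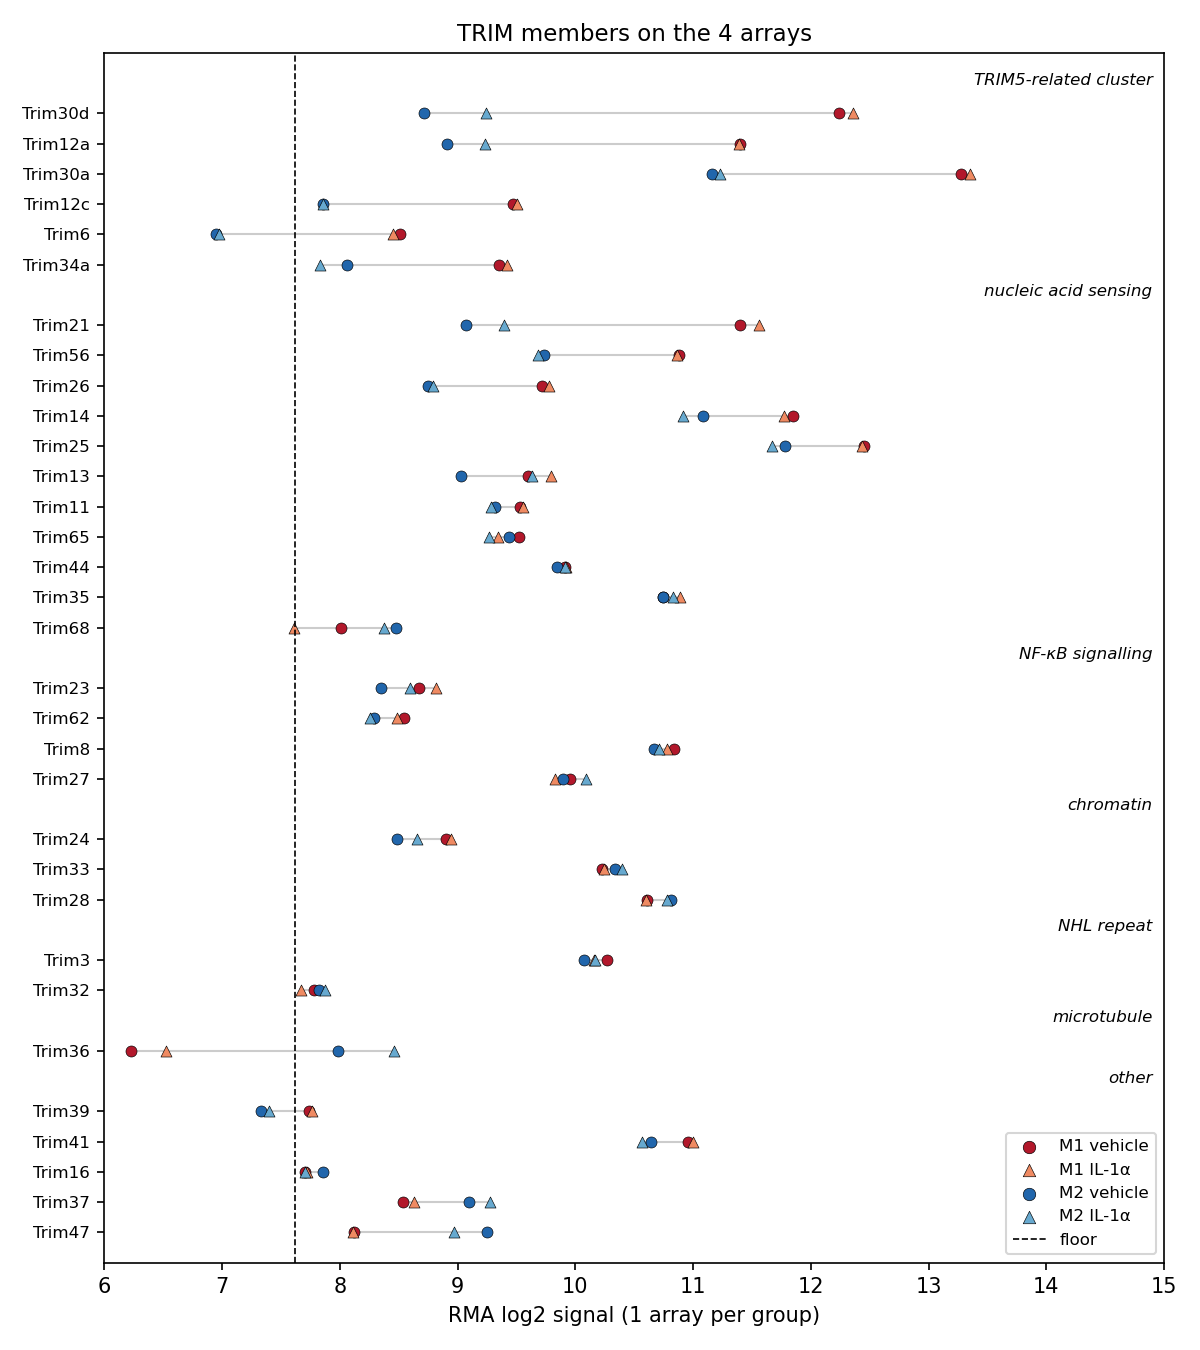
RMA log2 signal of the 32 TRIM members at the floor (horizontal axis) on each of the 4 arrays, 1 point per array, grouped by known role. The dashed line is the floor of 7.617, and the grey bar joins the lowest and highest array of a gene. All 6 cluster genes shown, Trim21 and Trim56 have both M1 arrays to the right of both M2 arrays by more than 1 log2 unit, while Trim36 has them to the left.

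The first question was how TRIM genes differ between M2 and M1 macrophages that received vehicle. Of the 32 members tested, 8 were at least 2-fold lower in M2 (25%), where 6.83% of all 10489 genes were, and 2 were at least 2-fold higher (6.25%), where 7.03% of all genes were. The 8 lower members were Trim30d, Trim12a, Trim21, Trim30a, Trim12c, Trim6, Trim34a and Trim56, and the 2 higher were Trim36 and Trim47. The members had a median difference of -0.28 with 24 of 32 below 0. Over all 10489 genes the median was 0.01 with 5120 below 0. All 6 cluster genes at the floor were among the 8 lower members. Outside the cluster, only Trim21 and Trim56 of 26 members were at least 2-fold lower, and the median was -0.18. Each of these differences compares 2 arrays and has no replicate check.

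Trim30d and Trim12a of the cluster had the largest differences with vehicle among the 32 members, followed by Trim21, described with the sensing genes. Trim30d, a relative of TRIM5 whose own function is little known, read 12.24 in M1 vehicle, 12.36 in M1 IL-1α, 8.72 in M2 vehicle and 9.24 in M2 IL-1α. Both M1 arrays lay far above both M2 arrays, 11.5-fold with vehicle and 8.69-fold with IL-1α. Its vehicle difference of -3.52 ranked 85 from the lowest among all 10489 genes. Trim12a read 11.40, 11.39, 8.91 and 9.24 on the arrays in the same order, a difference of -2.49 with vehicle (5.62-fold lower in M2). Trim30a, which is known to limit NF-κB activation downstream of Toll-like receptors, read 13.27 and 13.35 on the M1 arrays and 11.16 and 11.23 on the M2 arrays. Its difference with vehicle was -2.11 (4.32-fold lower in M2), and its M2 signals remained well above the floor. Trim12c read 9.47, 9.50, 7.86 and 7.86, which placed M2 just over the floor and 3.05-fold under M1.

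The other 2 cluster genes at the floor differed less. Trim6, which makes free ubiquitin chains used by the kinase IKKε, read 8.51 and 8.45 in M1 and 6.95 and 6.97 in M2. Both M2 signals lay under the floor, so the size of its difference (-1.56 with vehicle) is uncertain. Trim34a read 9.35 and 9.42 in M1 and 8.06 and 7.83 in M2, a difference of -1.30 with vehicle and -1.58 with IL-1α. The seventh cluster member, the pseudogene Trim30e-ps1, read under the floor on all 4 arrays (6.23, 6.12, 5.46 and 5.16). All 6 cluster genes at the floor were therefore at least 2-fold lower in M2 on both pairs of arrays, with a median of -1.86 with vehicle and -1.89 with IL-1α. Probe sets within the Trim12 and Trim30 groups can cross-hybridise, so the values are uncertain by member.

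In the RefSeq order of mouse chromosome 7, which holds 13 of the 59 members, the cluster runs from Trim6 to Trim30e-ps1 as a block of 21 annotated genes. Of these, 11 are TRIM genes, 7 of them measured by a probe set with 1 gene, and none of the others in the block was so measured. Around the block, 34 of the nearest 50 genes (25 on each side) were measured, and 37 of the 50 are olfactory receptor genes. None of the 34 reached the floor, and their differences with vehicle ran from -0.24 to 0.25. Signals under the floor cannot show whether those neighbours differ between the phenotypes.

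**Figure D2:**
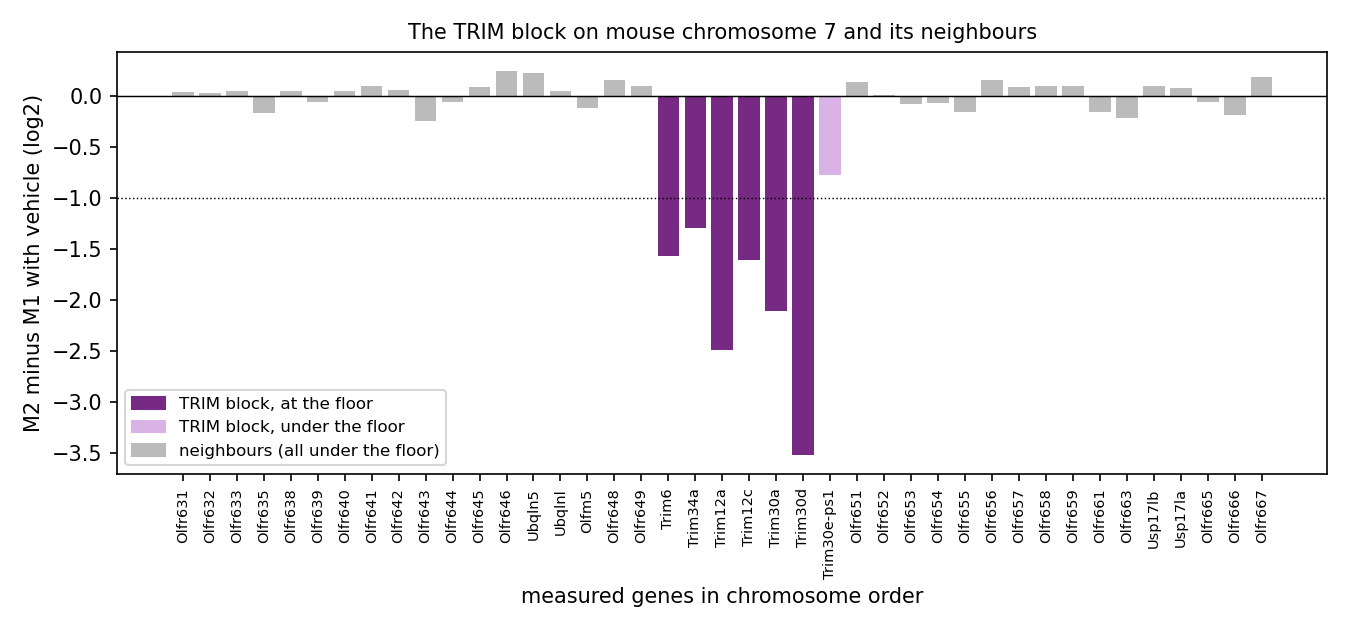
M2 minus M1 difference with vehicle (log2, vertical axis) for the measured genes of the chromosome 7 block and its neighbours, in chromosome order. The dotted line marks -1 (2-fold lower in M2). The 6 dark bars of the TRIM block lie between -3.52 and -1.30, the pale bar is the pseudogene Trim30e-ps1, and the grey neighbours lie between -0.24 and 0.25 with all signals under the floor.

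Members that act on nucleic acid sensing were next. Of 13 in this group, 11 reached the floor. With vehicle, 10 of the 11 were below 0 in M2 against M1 (median -0.56), beside 5120 of all 10489 genes. Trim21, the cytosolic antibody receptor that also ubiquitinates interferon regulatory factors, read 11.40 in M1 vehicle, 11.56 in M1 IL-1α, 9.07 in M2 vehicle and 9.39 in M2 IL-1α. Its M1 arrays were 5.02-fold over its M2 arrays with vehicle and 4.49-fold with IL-1α. Trim56, a ligase that promotes signalling through the cGAS and STING route, read 10.88 and 10.87 in M1 and 9.74 and 9.68 in M2, a difference of -1.14 with vehicle. Trim26, which controls the turnover of IRF3, read 9.71 and 9.78 in M1 and 8.75 and 8.79 in M2. Its -0.96 with vehicle and -0.99 with IL-1α were just short of 2-fold, whereas Trim56 lay just past it.

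The best known members of this group differed by less than 2-fold. Trim25, the ligase that helps to activate RIG-I, read 12.45 and 12.43 in M1 and 11.78 and 11.67 in M2 (-0.67 with vehicle). Trim14, an adaptor at the mitochondrial protein MAVS, read 11.85 and 11.78 in M1 and 11.08 and 10.91 in M2 (-0.77 with vehicle). With vehicle, Trim25 was 1.59-fold and Trim14 1.71-fold lower in M2. Trim13 was at -0.56 with vehicle and is described with the IL-1α response. Trim11, Trim65, Trim44 and Trim35 lay between -0.22 and -0.01 with vehicle. Trim11 read 9.53 and 9.55 in M1 and 9.31 and 9.29 in M2. Trim65, which acts on the RNA sensor MDA5, read 9.52 and 9.34 in M1 and 9.44 and 9.27 in M2. Trim44 read 9.91 and 9.92 in M1 and 9.85 and 9.92 in M2, and Trim35, a regulator of Irf7, read 10.75 and 10.89 in M1 and 10.74 and 10.83 in M2. Trim68, a coactivator of the androgen receptor, was the exception in direction, at 0.47 with vehicle and 0.76 with IL-1α. It read 8.01 and 7.61 in M1 and 8.48 and 8.38 in M2, and its M1 IL-1α signal lay just under the floor.

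Members outside these groups were mostly close in level between the phenotypes, with a few higher in M2. Trim36, a microtubule-associated ligase, read 6.22 in M1 vehicle, 6.52 in M1 IL-1α, 7.99 in M2 vehicle and 8.46 in M2 IL-1α. Both M1 signals lay under the floor, so the size of its difference (1.76 with vehicle, 1.94 with IL-1α) is uncertain. Trim47 read 8.12 and 8.11 in M1 and 9.25 and 8.97 in M2, which was 2.18-fold higher with vehicle and 1.81-fold with IL-1α. Trim37, a ligase known for histone H2A and centriole control, was at 0.56 with vehicle and 0.64 with IL-1α. The NF-κB regulators Trim23, Trim62, Trim8 and Trim27 lay between -0.32 and -0.06 with vehicle. The chromatin cofactors lay between -0.42 (Trim24) and 0.21 (Trim28, the corepressor recruited by KRAB zinc finger proteins), with Trim33, a regulator of SMAD signalling, at 0.11. The NHL-repeat members Trim3 (-0.19) and Trim32 (0.04) were close to M1. Among the rest, Trim39 was at -0.41, Trim41 at -0.31 and Trim16 at 0.16.

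The other 27 members read under the floor on all 4 arrays. They were Trim2, Trim7, Trim9, Trim10, Trim15, Trim29, Trim30e-ps1, Trim31, Trim38, Trim40, Trim42, Trim45, Trim46, Trim50, Trim52, Trim54, Trim55, Trim58, Trim59, Trim63, Trim66, Trim67, Trim69, Trim71, Trim72, Trim75 and Trim80. The group holds the muscle ligases Trim54, Trim55 and Trim63 and the membrane repair protein Trim72. Trim59 had the largest difference among them with IL-1α (6.12 in M1 and 7.26 in M2, 1.14), on signals not shown to be above background, and was singled out after its values were seen. A further 6 probe sets carried a numbered TRIM gene together with another gene, were not members, and entered no count.

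The phenotype difference was then set beside that of the arrays with IL-1α, which share no array with the vehicle pair. Again 8 of 32 members were at least 2-fold lower in M2 (6.06% of all 10479 genes), and they were the same 8 genes. Trim36 alone was at least 2-fold higher (8.15% of all genes), because Trim47, at 0.86, was under the threshold. At 1.5-fold, 11 members were lower on each pair of arrays (13.3% of all genes with vehicle and 11.4% with IL-1α). The number higher at 1.5-fold was 2 with vehicle (14.1% of all genes) and 4 with IL-1α (16.6%), where Trim37, Trim47 and Trim68 joined Trim36. Across the 32 members the differences with vehicle and with IL-1α correlated with r = 0.99 (Pearson) and rho = 0.97 (Spearman), a description across genes that share a normalisation. Over all 10625 genes at the floor r was 0.98, so this likeness is not particular to the family. Without the 2 members farthest from the median, Trim12a and Trim30d, r was 0.98. The differences of Trim30d and Trim12a were smaller with IL-1α (-3.12 and -2.15) than with vehicle (-3.52 and -2.49), and that of Trim34a was larger (-1.58 against -1.30).

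**Figure D3:**
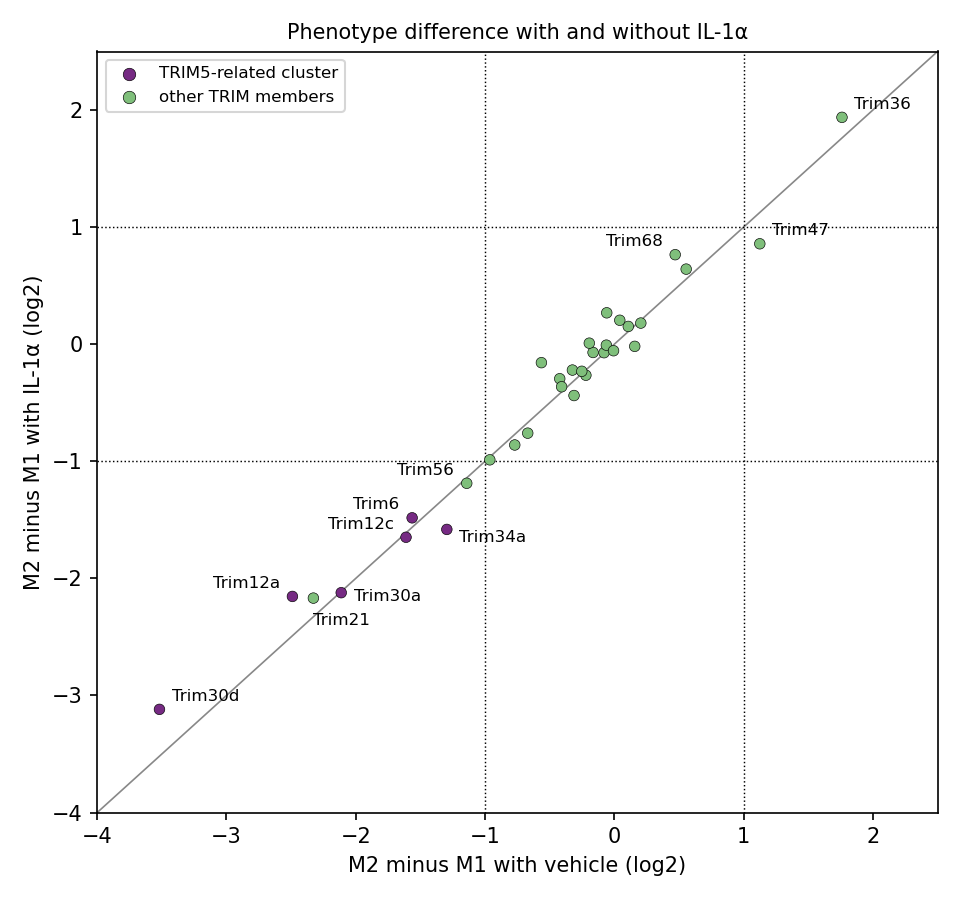
M2 minus M1 difference with vehicle (horizontal axis, log2) against the same difference with IL-1α (vertical axis, log2) for the 32 members at the floor, 1 point per gene. Dotted lines mark 2-fold and the diagonal marks equal differences. The 8 genes in the lower left corner are at least 2-fold lower in M2 on both pairs of arrays, and Trim36 is the gene past 2-fold upward on both.

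A single model allowed a test of the phenotype. limma was fitted on all 10625 genes at the floor with phenotype and treatment as additive terms, and p-values were adjusted over all of them by the Benjamini-Hochberg method at 0.05. It called 23 of the 32 members, 18 lower and 5 higher in M2, where it called 62.5% of all genes (29.3% lower and 33.2% higher). At an unadjusted p under 0.05 the same model also gave 23 members, beside 65.5% of all genes. By direction, 56.25% of the members were called lower and 15.625% higher. Since the model calls most genes, a call alone says little about a member. The common M2 minus M1 effect was -3.32 ± 0.09 SE for Trim30d (limma adjusted p = 3.62e-11), -2.32 ± 0.09 for Trim12a (5.87e-10), -2.25 ± 0.07 for Trim21 (1.74e-10) and -2.12 ± 0.05 for Trim30a (1.27e-11). It was -1.16 ± 0.07 for Trim56 (limma adjusted p = 4.01e-08). Smaller effects of the cluster were those of Trim12c (-1.63 ± 0.09, limma adjusted p = 1.67e-08) and Trim34a (-1.44 ± 0.10, 1.34e-07). Trim6, Trim36 and Trim39 reached the floor in 1 phenotype only, so their calls rest partly on signals not shown to be above background. The 5 members called higher were Trim28, Trim36, Trim37, Trim47 and Trim68. The 9 not called were Trim3, Trim8, Trim16, Trim27, Trim32, Trim33, Trim35, Trim44 and Trim65. The model sets the phenotype effect against the departure from additivity, with 1 residual degree of freedom per gene and 10.05 borrowed across genes. These p-values measure no spread between cultures or animals.

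The response to IL-1α was small in both phenotypes. In M1, none of 31 members tested differed by 1.5-fold, and 0.02% of all 10012 genes were that much higher and 0.04% lower. The members ran from -0.39 (Trim68) to 0.20 (Trim13), and their standard deviation over genes was 0.11, as was that of all genes. In M2, none of 30 members tested differed by 2-fold (0.35% of all 10284 genes were higher and 0% lower). At 1.5-fold, Trim13 was higher and no member was lower, beside 0.875% and 0% of all genes. The members had a median of 0.04 in M2, beside 0.05 over all genes.

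Trim13, a ligase anchored in the endoplasmic reticulum, gave the largest M2 response of the family. It read 9.03 in M2 vehicle and 9.63 in M2 IL-1α (0.60, 1.52-fold), and 9.59 and 9.79 on the M1 arrays. The M2 IL-1α signal thus lay between the 2 M1 signals, and the phenotype difference of -0.56 with vehicle was -0.16 with IL-1α. Its rank in M2 was 84 from the highest among 10284 genes. Under loess centring and quantile normalisation the response was 0.57 and 0.55, both just under 1.5-fold. After it came Trim30d (0.52), Trim36 (0.48), Trim12a (0.33), Trim21 (0.32) and Trim23 (0.25), which conjugates ubiquitin to the IKK subunit NEMO. The lowest members in M2 were Trim47 (-0.27) and Trim34a (-0.22), which lies in the same block as Trim30d and Trim12a. Trim30a, at 0.07, and Trim12c, at 0.00, stayed near their vehicle levels.

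The M2 response was then compared with the M1 response by subtracting the second from the first. No member reached 1.5-fold in this difference, beside 1.02% of all 10625 genes upward and 0.141% downward. It was 0.41 for Trim13, 0.40 for Trim30d, 0.34 for Trim12a and 0.33 for Trim27, and -0.29 for Trim34a and -0.27 for Trim47. Across the 32 members at the floor, the responses in M1 and M2, which share no array, correlated with r = 0.57 (Pearson) and rho = 0.51 (Spearman). Over all 10625 genes these were 0.09 and 0.07. Among the members, the response of Trim36 in M1 and those of Trim6 and Trim39 in M2 rest on signals under the floor. The value across members is a description over genes, many of them near 0 in both responses, and without Trim36 and Trim68 it was 0.52. In the limma model no member was called for the shared effect of IL-1α, nor was any of the 10625 genes. At an unadjusted p under 0.05 there were 5 members, Trim13, Trim21, Trim30d and Trim36 upward and Trim68 downward, beside 6.08% of all genes. The smallest limma adjusted p among members was 0.47, for Trim13 (0.40 ± 0.10 SE).

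**Figure D4:**
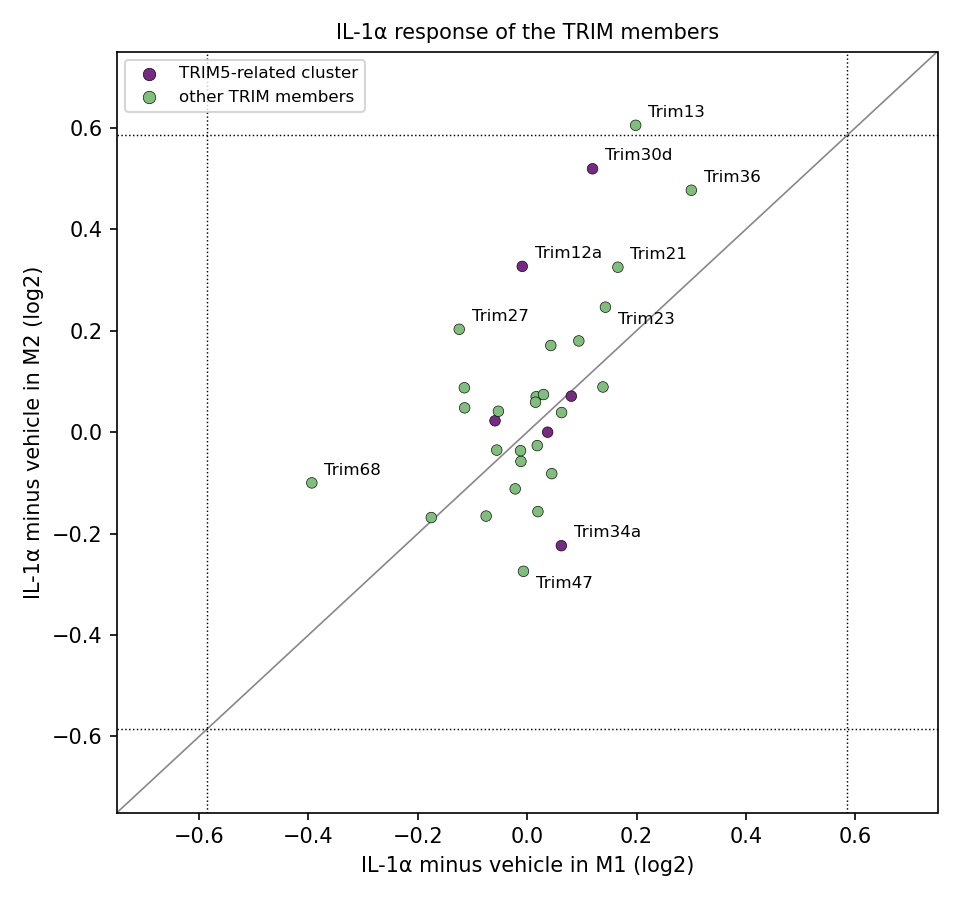
IL-1α minus vehicle difference in M1 (horizontal axis, log2) against that in M2 (vertical axis, log2) for the 32 members at the floor, 1 point per gene and no replicates. Dotted lines mark 1.5-fold and the diagonal marks equal responses. Trim13 is the only member past 1.5-fold, at 0.60 in M2, and Trim68 is the lowest in M1 at -0.39. The M1 response of Trim36 and the M2 responses of Trim6 and Trim39 rest on signals under the floor.

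The RefSeq windows can be read beside the phenotype difference. Of the 8 members at least 2-fold lower in M2 with vehicle, 6 held the response element letters printed above, and Trim6 and Trim56 did not. Among the other 15 members at the floor with a window, 1 did, Trim26, at -0.96. Among 23 members under the floor, 1 did, Trim2. Since 5 of the 6 come from the same block of related genes, these counts describe the family and are no test. The share among all genes at least 2-fold lower in M2 was not counted. Whether the matches are particular to these members was therefore not tested. The table held no window for 9 members at the floor, which were not searched: Trim3, Trim8, Trim11, Trim14, Trim16, Trim33, Trim35, Trim36 and Trim65.

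Partner genes of the TRIM proteins were read from the same arrays. Of 12 genes of RIG-I and cGAS sensing, 8 were lower in M2 by 2-fold or more with vehicle and none was higher (median -1.83). They included Irf7 (-5.73), Ddx60 (-4.34, with both M2 signals under the floor, so that its size is uncertain), Zbp1 (-3.61) and the RNA sensor Ifih1 (-2.63), while the adaptor Mavs was at 0.07. All 4 genes of ISG15 conjugation measured were at least 2-fold lower, with Herc6, the main mouse ISG15 ligase, at -3.30 and the ISG15 protease Usp18 at -2.82. Of 12 interferon signalling genes, 6 were at least 2-fold lower, with Stat2 at -2.71 and Irf1 at -1.93, while the receptor chains Ifnar1 and Ifngr2 were at -0.04 and -0.01 and Ifngr1 was at 0.58. Of 10 ubiquitin-conjugating enzymes that serve TRIM ligases, none reached 2-fold, where 6.83% of all genes were lower and 7.03% higher by that much. Their median was -0.08, and the largest difference was -0.44 for Ube2g2.

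Targets and relatives were read in the same way. Of 11 genes of the TAK1, IKK and TRAF6 route measured, 1 was at least 2-fold lower with vehicle, where 6.83% of all genes were. This was the inhibitor Nfkbia (-2.54), which was 1.65 higher with IL-1α in M2. The median of that list was -0.37, with Traf6 at -0.63 and Tab3 at -0.46. Among 7 partners of Trim28, the heterochromatin protein Cbx5 was at 1.10 and Morc3 at -1.25, while the methyltransferase Setdb1 was at 0.08. Of 8 TRIM family genes that carry other names, 4 reached the floor. Pml, the organiser of nuclear bodies, read 11.79 and 11.80 in M1 and 10.20 and 10.21 in M2 (-1.59 with vehicle), and Mid1 was at -0.72. The others at the floor, Rnf207 and Fsd1, were both at 0.03 with vehicle.

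Markers of other cells differed with the phenotype too. Of 5 dendritic cell markers, 3 reached the floor with Clec9a (-4.35) and Xcr1 (-1.96) lower and Zbtb46 (0.48) higher in M2. Both M2 signals of Clec9a and Xcr1 and both M1 signals of Zbtb46 were under the floor. The list had medians of 7.46 and 7.43 on the M1 arrays and 6.49 and 6.38 on the M2 arrays. Of 5 neutrophil markers, 3 reached it and were higher in M2, led by Ngp (2.52), with list medians of 6.91 and 6.95 in M1 and 7.81 and 7.62 in M2. All M1 signals of these neutrophil markers were under the floor. Of 4 stromal and endothelial markers, 3 reached the floor, with Pecam1 at 0.74, Col3a1 at 0.24 and Col1a1 at 0.08, and of 4 muscle markers 2 did, Acta1 (0.18) and Ckm (0.12). The defining genes Flt3 and Ly6g were under the floor on all 4 arrays. Their part in the TRIM differences was not tested.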

How the data were processed

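The authors deposited 1 log2 signal for each probe set and array. The submitters' processing notes name RMA and Affymetrix Expression Console. Versions and settings are not given in the sources used here, and the log base was read from the values (3.09 to 14.47). RMA equalises the arrays and compresses dim signals. Of 35556 probe sets, 21789 carried 1 gene in GEO's platform annotation, 1621 several and 12146 none. Probe sets were averaged per gene. Differences between 2 arrays were called at 2-fold where 1 of them reached the floor (7.617). limma 3.58.1 in R 4.3.3 (lmFit, eBayes with trend) gave the additive fit. The code was checked on simulated additive arrays with a common noise level taken from the M1 pair. Such a check cannot show whether the p-values hold for these data. Sequences came from RefSeq tables (GRCm38.p6), and the array's own build is not given in the sources used here. A further motif that was searched is not reported here. Named were all members at the floor, with every array for those at least 2-fold apart between phenotypes or 1.5-fold with IL-1α and for the cluster and sensing genes, and the largest differences of each partner list (up to 4). Level partner genes (Mavs, Ifnar1, Ifngr2, Setdb1), Ifngr1 and Trim59 were added after their values were seen. The members and lists were chosen with earlier results of these data known. Alternatives were 1.5-fold, dropping the floor, raising it to the 75th percentile (9.635), centring by loess, quantile normalisation, the brightest probe set, and eBayes without trend or robust. The number of arrays limits the precision.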

Additional observations from a re-analysis of the deposited data

Results flagged for a closer look

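Trim27, which restrains IKK signalling, was lower with IL-1α in M1 (-0.12) and higher in M2 (0.20). Each size exceeds the standard deviation over all genes of that response (0.11 and 0.18), whose medians were -0.002 in M1 and 0.053 in M2. Taken from that median, however, the M2 response of Trim27 lies within the standard deviation. Many genes lay further out, as Trim27 ranked 1239 from the lowest of 10012 genes in M1. In M2 it ranked 1247 from the highest of 10284. The difference of 0.33 was not tested, since each response rests on 2 arrays.

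In the chromosome 7 block, 3 probe sets carry several genes and entered no comparison of the report, yet read above the floor. The probe set shared by Trim30b and the predicted gene Gm38525 read 10.87 and 10.95 in M1 and 5.61 and 5.54 in M2, a difference of -5.26 with vehicle on M2 signals under the floor. The probe set shared by Trim5, Trim12c and Trim12a was at -1.77 with vehicle (10.68 and 8.91), and that shared by Trim5 and Trim12c was at -1.69 (10.29 and 8.60). Which of the named genes gives the signal cannot be told apart on these probe sets.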

How the results depend on the processing

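The 8 members lower in M2 kept that count on both pairs of arrays under loess centring, quantile normalisation, no floor and the brightest probe set, and 11 were lower at 1.5-fold. With the floor at the 75th percentile fewer members were tested, 16 with vehicle and 17 with IL-1α. There, 5 were lower and 0 higher with vehicle, 5 were lower and 0 higher with IL-1α, and limma called 10 lower and 1 higher. Members higher in M2 with IL-1α numbered 4 at 1.5-fold and 2 with no floor, and limma called 8 higher with no floor. At 1.5-fold, 1 member was higher with IL-1α in M2. The limma IL-1α effect of Trim6, not called in any fit, changed sign under quantile normalisation (4.54e-05). The brightest probe set changed no member's value, as each has 1 probe set. No paired analysis was possible because each group holds 1 array and the labels carry no replicate numbers. Depth does not apply to arrays, and signals under the floor limit the sizes given for Trim6, Trim36 and Trim39.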
